A study of Mus musculus with 6 samples.

Results

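The 8 genes described here mark the path from mesenchyme to cartilage and bone, and were measured in mouse embryonic fibroblasts (MEFs), the mixed connective-tissue cells that grow out of dissociated embryos. The members were the rows of the count table whose symbol was Sox9, Runx1, Runx2, Sp7, Alpl, Acan, Matn3 or Phex, and all 8 were found among 23842 genes. The series compared 3 libraries of cultured MEFs whose genotype label is NGLY1-/- (knockout) with 3 libraries labelled WT (wild type), asking which genes differ when the deglycosylating enzyme NGLY1 is missing. Both groups were of the C57BL/6 strain, were cultured untreated in serum-containing high-glucose medium. The labels give no deleted part of the gene, passage or embryo age, and nothing in them tells separate embryos or dishes apart. The p-values therefore reflect spread among these 6 libraries, part of which may be technical.

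SOX9 is the transcription factor that commits mesenchymal cells to cartilage and drives the genes of its matrix. RUNX2 is needed to form osteoblasts and acts upstream of SP7 (osterix), while RUNX1 is best known from blood formation and is also present in skeletal progenitors. Aggrecan (Acan) is the main proteoglycan of cartilage, matrilin 3 (Matn3) is an adaptor protein of its collagen network, tissue-nonspecific alkaline phosphatase (Alpl) removes the mineral inhibitor pyrophosphate, and the endopeptidase PHEX restrains the phosphate-wasting hormone FGF23.

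Total counts ran from 33007239 to 37841558 in knockout and from 27323577 to 37790710 in wild-type libraries. Genes typed as ribosomal RNA took 0.208% to 3.73% of the counts in knockout and 1.45% to 2.82% in wild-type libraries. Within a group, pairs of replicates were farther apart than counting noise (chi-square per gene 12.1 to 154). Ngly1 itself (gene ID 59007) had 618, 420 and 457 counts in knockout and 668, 632 and 307 counts in wild-type libraries, so its whole-gene count is no check of the genotype, and directions rest on the labels. Fibroblast genes were abundant: Col1a1, a chain of type I collagen, averaged 1118 CPM (counts scaled to library size) in knockout and 1183 CPM in wild-type cells, whereas Lum and Fap, also on the fibroblast marker list, had at most 4 counts in any library.

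Both Runx genes are transcribed from more than one start, and RUNX proteins bind the bases ACCACA. The windows shown here, from 250 bases before to 50 after an annotated start in RefSeq (GRCm38), were chosen because Runx1 and Runx2 are the pair of close relatives among the members and share a stretch of sequence. The 2 windows lie at chr16:92826025-92826324 on the minus strand, the more upstream of 2 windows listed for Runx1, and at chr17:44814578-44814877 on the minus strand for Runx2. They are printed in the direction of transcription, with ACCACA or its reverse complement TGTGGT in capitals.
Runx1: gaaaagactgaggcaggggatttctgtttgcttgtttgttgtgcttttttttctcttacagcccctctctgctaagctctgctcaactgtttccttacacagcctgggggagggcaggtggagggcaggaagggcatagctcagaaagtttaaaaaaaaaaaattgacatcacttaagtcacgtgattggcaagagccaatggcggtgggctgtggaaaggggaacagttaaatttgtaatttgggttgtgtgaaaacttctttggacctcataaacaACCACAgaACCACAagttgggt
Runx2: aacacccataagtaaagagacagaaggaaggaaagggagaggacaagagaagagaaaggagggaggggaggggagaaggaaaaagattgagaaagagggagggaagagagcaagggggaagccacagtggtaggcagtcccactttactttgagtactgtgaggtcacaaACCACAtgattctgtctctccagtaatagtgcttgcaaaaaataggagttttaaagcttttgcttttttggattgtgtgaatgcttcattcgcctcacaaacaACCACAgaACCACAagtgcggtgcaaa
The Runx1 window held 2 such matches and the Runx2 window 3. The last 2 matches of each lay in one identical run of 22 bases that begins at position 274 in the Runx1 window and at position 269 in the Runx2 window, counted from the 5′ end with the start of transcription at position 251.
Shared run: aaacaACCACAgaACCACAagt
This run occurred in 2 of 32851 promoter windows of the same length, those of Runx1 and Runx2. At least 1 match to ACCACA or TGTGGT was found in 16.8% of all windows and 2 or more in 1.81%. The 6 members with a window (Runx1, Runx2, Alpl, Acan, Matn3 and Phex) had 8 windows in all. Only those 2 held ACCACA or TGTGGT, and 0 of the 8 held ACAATG or its reverse complement CATTGT, core bases of SOX binding present in 12.6% of all windows. Such matches describe letters in a window, not binding. Sox9 and Sp7 had no entry.

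Of the 8 genes, 5 had enough counts to be tested: Sox9, Runx1 and Runx2 above 8 CPM in every library, and Matn3 and Phex at a few CPM or less. At a false discovery rate of 5% in edgeR's quasi-likelihood test, 2 of the 5 were higher in knockout cells (Sox9 and Runx1) and 2 lower (Matn3 and Phex), and Runx2 did not pass. Across all 15039 genes tested, 60.9% were called, 30.7% higher and 30.2% lower, so 4 calls among 5 genes are not particular to this group. The median log2 fold change of the 5 was -0.02, against -0.04 over all tested genes. Sp7, Alpl and Acan had 13 counts or fewer over any group and were not tested.

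**Figure D1:**
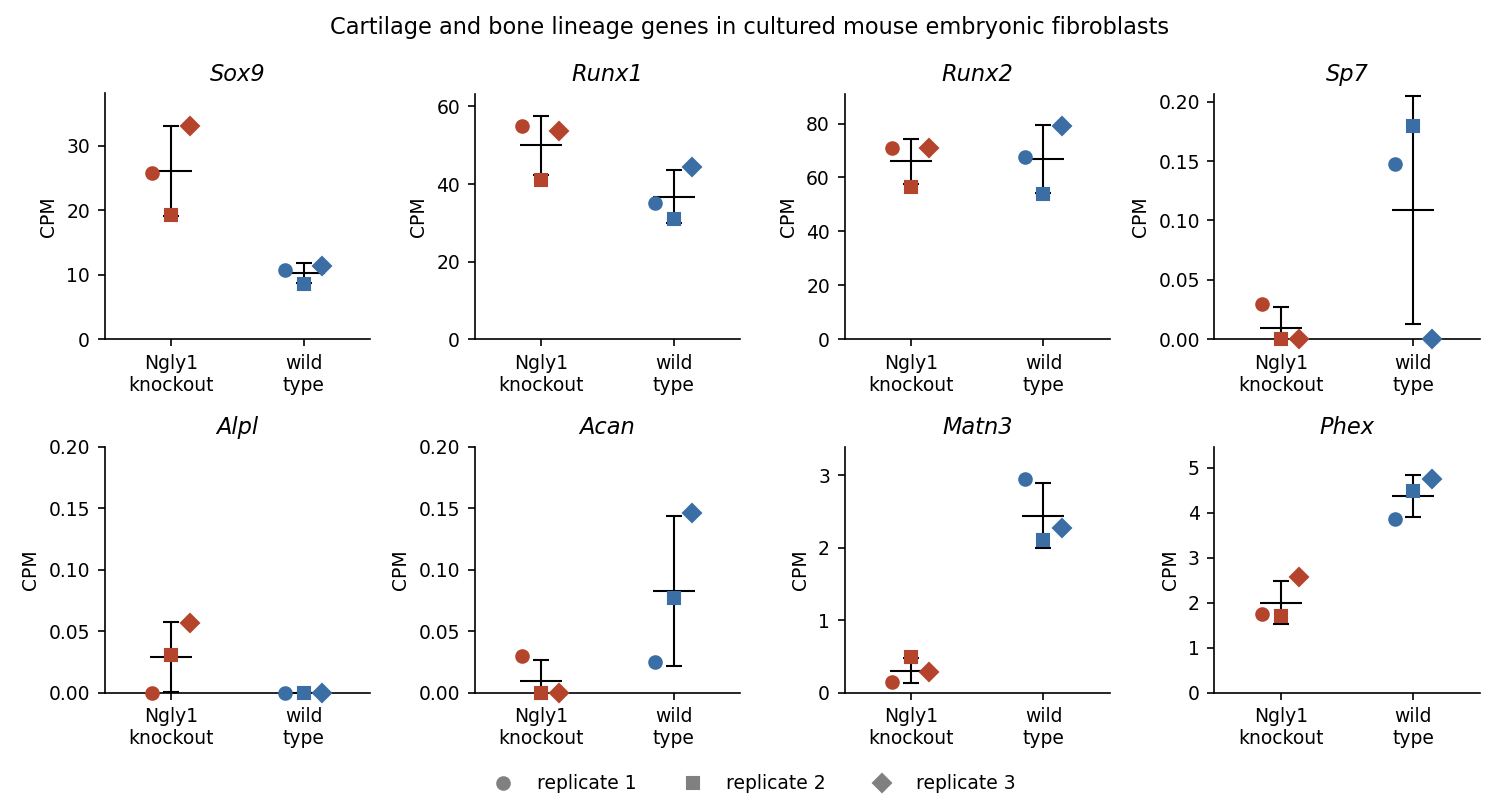
Level of each of the 8 genes in CPM (linear axes from 0) in knockout (red) and wild-type (blue) libraries, with symbols for the replicate numbers and bars for the mean and SD of 3 libraries. Sox9 was higher in every knockout library than in any wild-type library, Matn3 and Phex were lower in every one, and Sp7, Alpl and Acan stayed under 0.2 CPM throughout. Groups did not overlap for 67.3% of all tested genes.

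The cartilage regulator Sox9 (gene ID 20682; chromosome 11, 112782210 to 112787757) was more abundant without NGLY1. It had 25.8, 19.3 and 33.2 CPM in the knockout libraries, against 10.8, 8.63 and 11.5 CPM in the wild-type libraries. The groups did not overlap, as was the case for 67.3% of all tested genes, and the knockout libraries spread more widely. The means were 26.1 ± 6.95 CPM in knockout and 10.3 ± 1.48 CPM in wild-type cells (SD, n = 3 each). The fitted change was 2.53-fold (log2 fold change 1.34, SE 0.20, 95% interval 0.89 to 1.79; adjusted p = 0.000288 in edgeR's quasi-likelihood test). Tested genes of chromosome 11 had a median log2 fold change of -0.02.

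Of the Runx pair, Runx1 passed the threshold and Runx2 did not. Runx2 (gene ID 12393; chromosome 17, 44495987 to 44814797), the osteoblast regulator, had 70.8, 56.4 and 70.8 CPM in knockout libraries, against 67.6, 54.0 and 79.2 CPM in wild-type libraries. The wild-type range enclosed the knockout range. Its log2 fold change was -0.02 (SE 0.15, adjusted p = 0.921). The 95% interval, -0.35 to 0.31, holds knockout levels from 0.785 to 1.24 times the wild-type level. The gene overlaps Supt3 and Runx2os2, transcribed from the other strand. The strand setting of the counting is not given in the sources used here. Reads of the 3 genes therefore cannot be told apart with certainty. Supt3 had 347 to 423 counts in knockout and 421 to 597 counts in wild-type libraries, Runx2os2 had at most 17 in any library, and Runx2 had 1852 to 2511 counts in knockout and 2102 to 2749 counts in wild-type libraries. Their part in the Runx2 values was not tested.

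Runx1 (gene ID 12394; chromosome 16, 92601466 to 92826074) had 55.1, 41.2 and 53.6 CPM in knockout libraries, against 35.0, 30.9 and 44.3 CPM in wild-type libraries. The groups overlapped through knockout replicate 2, the lowest of its group, and wild-type replicate 3, the highest of its own. The fitted change was 1.36-fold (log2 fold change 0.44, SE 0.16, 95% interval 0.09 to 0.79) with an adjusted p of 0.032. That call was lost without knockout replicate 1 or 3 (adjusted p = 0.11 and 0.0924), without wild-type replicate 1 or 2 (0.0774 and 0.107) and with scaling by library totals only (0.0639), while the sign was positive each time. On chromosome 16, 48.5% of the tested genes were lower in knockout cells and 19.1% higher, with a median log2 fold change of -0.37, and within 1 Mb of Runx1 9 of 18 were lower and 2 higher.

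**Figure D2:**
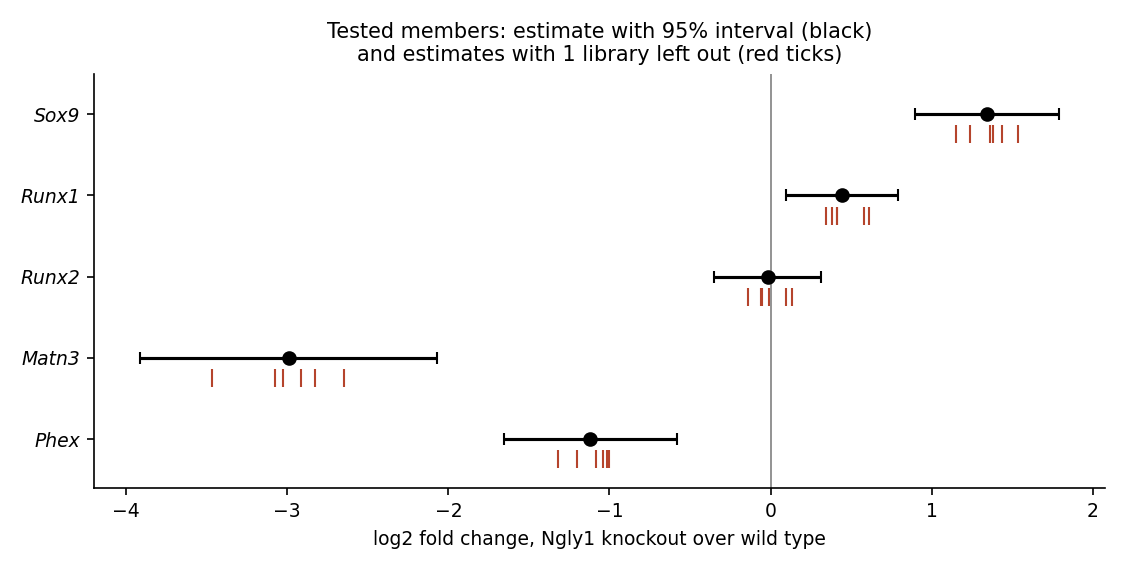
Log2 fold change, knockout over wild type, for the 5 tested genes (black points, with 95% intervals from the edgeR fit) and the estimate with each of the 6 libraries left out in turn (red ticks). The interval of Runx2 spans 0, that of Runx1 starts at 0.09, and the estimates for Matn3 without 1 library run from -3.47 to -2.65.

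Sp7 (gene ID 170574; chromosome 15, 102356603 to 102367035), which acts after RUNX2 in osteoblast formation, was close to absent. The knockout libraries held 1, 0 and 0 counts, and the wild-type libraries 6, 7 and 0. Wild-type replicate 3 had 0 like knockout replicates 2 and 3, so the groups overlapped. The summed counts, 1 in knockout and 13 in wild-type cells, give a ratio of 0.0805 with a 95% exact counting interval of 0.00189 to 0.536. That interval covers counting error only. With no filter on low counts the adjusted p was 0.0799.

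The largest change among the tested members was that of Matn3 (gene ID 17182; chromosome 12, 8947929 to 8972028). The knockout libraries held 5, 16 and 10 counts, and the wild-type libraries 120, 82 and 62. In CPM these are 0.147, 0.488 and 0.282 in knockout, against 2.95, 2.11 and 2.27 in wild-type libraries. Every knockout library lay under every wild-type library, by a wide gap. Groups without overlap, in either direction, were found for 67.3% of all tested genes. Matn3 was 7.95-fold lower (log2 fold change -2.99, SE 0.41, adjusted p = 0.000151), and its wild-type level of 2.44 ± 0.447 CPM (SD, n = 3) was already low. In knockout cells Matn3 was lower while Sox9, the regulator of cartilage matrix genes, was higher.

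Aggrecan, the other cartilage matrix member (Acan, gene ID 11595; chromosome 7, 79053226 to 79115099), was barely detected in either group. It had 1, 0 and 0 counts in knockout and 1, 3 and 4 counts in wild-type libraries. The single counts of knockout and wild-type replicate 1 make the groups overlap. The ratio of the sums, 1 to 8, was 0.131 with a counting interval of 0.00295 to 0.976, and the adjusted p without a filter on low counts was 0.183.

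Of the 2 members that act on mineral, Phex was measurable. Phex (gene ID 18675; chromosome X, 157162075 to 157415286) had 59, 56 and 91 counts in knockout and 157, 175 and 130 counts in wild-type libraries. This corresponds to 1.74, 1.71 and 2.57 CPM in knockout, against 3.86, 4.49 and 4.76 CPM in wild-type libraries. The groups did not overlap, as for 67.3% of all tested genes. Phex was 2.17-fold lower in knockout cells (log2 fold change -1.12, SE 0.24, adjusted p = 0.00252). Of the tested genes of chromosome X, 38.8% were lower and 21.3% higher, with a median log2 fold change of -0.23. Xist, the RNA that coats an inactive X chromosome, had 7 to 17 counts in knockout and 2 to 12 counts in wild-type libraries. The Y-linked genes Ddx3y, Eif2s3y, Kdm5d and Uty summed to 2772 to 3233 counts in knockout and 5896 to 10581 counts in wild-type libraries, and their part in the Phex difference was not tested.

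Alpl (gene ID 11647; chromosome 4, 137741731 to 137796384), the alkaline phosphatase of mineralising cells, had 0, 1 and 2 counts in the knockout libraries and 0 counts in each wild-type library. Both sums were at or under the floor of 3 counts, so no fold is given. A count of 0 allows up to 0.0737 to 0.11 CPM per wild-type library.

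Levels of different genes were compared per length, as CPM per kilobase of exon (RPKM). In knockout cells Runx2 stood first at 7.47 ± 0.939 RPKM (SD, n = 3), followed by Sox9 at 6.30 ± 1.68, Runx1 at 4.15 ± 0.634, Phex at 0.319 ± 0.0773 and Matn3 at 0.101 ± 0.0568 RPKM, with overlap only between Runx2 and Sox9. In wild-type cells the order was Runx2 at 7.57 ± 1.43, Runx1 at 3.06 ± 0.569, Sox9 at 2.49 ± 0.359, Matn3 at 0.81 ± 0.148 and Phex at 0.695 ± 0.0734 RPKM (SD, n = 3). There the ranges of Runx1 and Sox9 overlapped, as did those of Matn3 and Phex. The ranges of Sox9 and Runx2 thus overlapped in knockout cells, and Sox9 lay under Runx2 in wild-type cells. The remaining 3 genes were under 0.06 RPKM in every library of both groups.

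Ratios of 2 members within a library need no scaling between libraries. These 4 ratios were chosen after the members' values were seen. Sox9 had 0.364, 0.341 and 0.468 counts per count of Runx2 in knockout libraries, against 0.160, 0.160 and 0.145 in wild-type libraries. Runx1 had 0.777, 0.729 and 0.757 counts per count of Runx2 in knockout libraries, against 0.519, 0.573 and 0.559 in wild-type libraries. The 2 Runx genes thus stood in a narrow proportion within each group, 0.754 ± 0.024 in knockout and 0.55 ± 0.0283 in wild-type cells (SD, n = 3 each), and the groups did not overlap, unlike the scaled Runx1 levels. Matn3 had 0.00572, 0.0253 and 0.0085 counts per count of Sox9 in knockout libraries, against 0.272, 0.244 and 0.198 in wild-type libraries, a geometric mean ratio 22.0-fold lower. Phex per Runx2 was 0.0303 ± 0.00584 in knockout and 0.0668 ± 0.0143 in wild-type cells. In each of the 4 ratios the groups were separate, as were those of 67.3% of single tested genes. The two-sided exact permutation test gave p = 0.1 (0.1 after Benjamini-Hochberg adjustment over the 4), the smallest value that 3 libraries against 3 allow. Because the ratios were picked on these same values, the separation and the p-value are a description only. Ratios of other gene pairs were not computed.

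**Figure D3:**
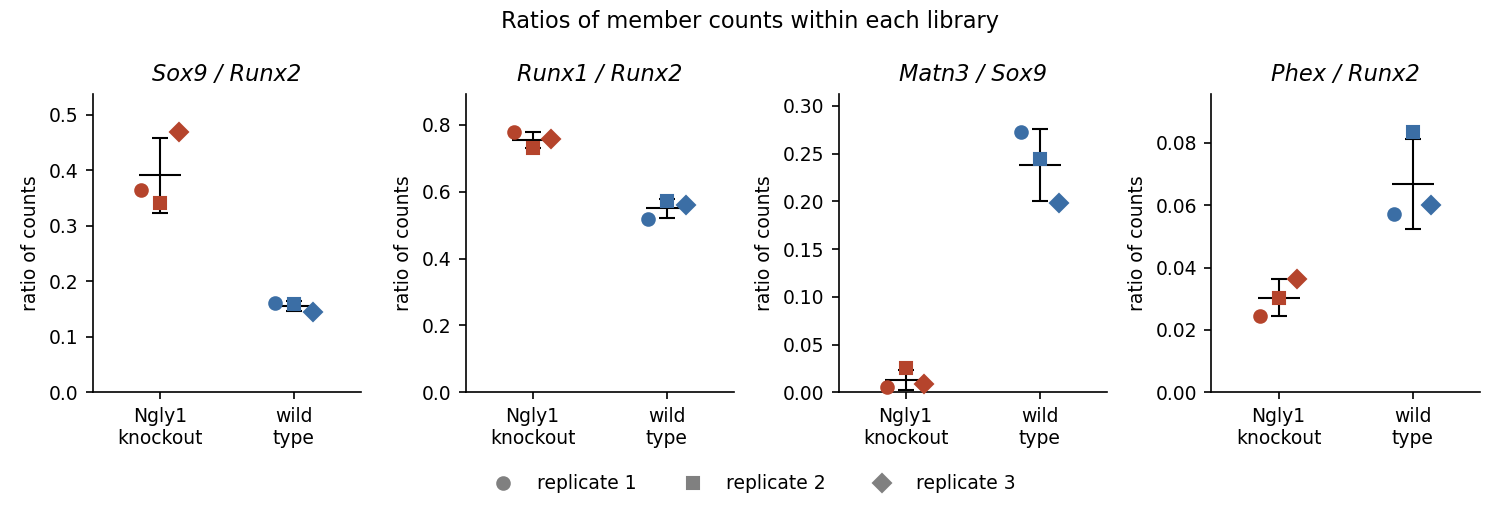
Ratio of the counts of 2 members within each library (linear axes from 0) in knockout (red) and wild-type (blue) libraries, with symbols for the replicate numbers and bars for the mean and SD of 3 libraries. Runx1 per Runx2 lay between 0.729 and 0.777 in knockout and between 0.519 and 0.573 in wild-type libraries, and Matn3 per Sox9 was under 0.03 in every knockout library.

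Other genes of the cartilage programme went both ways. Of 32 symbols on a chondrocyte list, 11 were tested: 4 were higher, 5 lower and 2 not called (81.8% called; 60.9% of all tested genes were), with a median log2 fold change of -0.22. Those with the smallest p were Papss2, which makes the sulfate donor for proteoglycans, at 1.20 ± 0.133 CPM in knockout and 7.91 ± 1.26 CPM in wild-type cells (SD, n = 3 each), and the cartilage collagen gene Col11a1, which was 20.1-fold lower (adjusted p = 7.93e-05). Cilp2, a cartilage matrix protein gene, was 8.79-fold lower (adjusted p = 0.000287), whereas Trps1, a zinc-finger repressor active in growth-plate cartilage, rose 1.74-fold to 126 ± 11.4 CPM in knockout cells, against 72.5 ± 8.78 CPM in wild-type cells (SD, n = 3 each). Col2a1, the defining collagen of cartilage, had 3 counts in each knockout library, against 0, 3 and 1 in wild-type libraries. RNA of markers of mature cartilage cells was low. The 3 of 9 chondrocyte marker symbols with rows in the table (Col2a1, Col9a3 and Col10a1) summed to 1.77 to 2.06 CPM in knockout and 0.476 to 0.786 CPM in wild-type libraries. Most of each sum was Col9a3, which was 3.70-fold higher in knockout cells (adjusted p = 0.000982 in edgeR). The other 6 marker symbols had no row in the table, and the part of mature cartilage cells in the Sox9 difference was not tested. Fewer cells of a type and less RNA per cell cannot be told apart in these bulk cultures.

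On the osteoblast list, 6 of 23 tested genes were higher, 10 lower and 7 not called (69.6% called, against 60.9% of all tested genes). The median log2 fold change was -0.26. Cdh11, the osteoblast cadherin gene, fell to 1.78 ± 0.279 CPM in knockout cells, against 22.0 ± 4.80 CPM in wild-type cells (SD, n = 3 each), a change of 12.4-fold (adjusted p = 5.29e-07). Twist1, whose product blocks DNA binding by RUNX2, was 2.83-fold lower (adjusted p = 2.16e-05). Spp1, encoding the secreted phosphoprotein osteopontin, rose 5.83-fold to 1695 ± 216 CPM in knockout cells, against 290 ± 63.6 CPM in wild-type cells (SD, n = 3 each). Atf4, a transcription factor of both osteoblasts and amino acid stress, rose 3.12-fold (adjusted p = 3.18e-06). Named after their values were seen, Zfp521, whose product restrains RUNX2, and the homeobox gene Dlx3 had 0 counts in all 3 knockout libraries. Zfp521 had 26, 25 and 17 counts in wild-type libraries, at least 21.7-fold lower in knockout with the knockout sum set to a floor of 3 counts, and Dlx3 had 28, 17 and 14, at least 18.8-fold lower. The markers of mature osteoblasts and osteocytes with rows in the table, 3 of 7 (Bglap, Bglap2 and Ifitm5), summed to 0.295 to 0.536 CPM in knockout and 0.622 to 0.909 CPM in wild-type libraries, and the part of such cells in these differences was not tested.

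Genes that handle mineral and phosphate also went both ways. Of 15 tested, 6 were higher, 5 lower and 4 not called (73.3% called, against 60.9% of all tested genes). The median log2 fold change was 0.24. The 4 with the smallest p were all higher. Ank, whose product exports the mineral inhibitor pyrophosphate or its source, reached 68.7 ± 7.35 CPM in knockout and 12.8 ± 1.79 CPM in wild-type cells (SD, n = 3 each), a 5.36-fold rise. The secreted glycoprotein gene Stc2 rose 13.6-fold (adjusted p = 5.70e-07). The sodium-phosphate transporter genes Slc20a1 and Slc20a2 rose 4.73-fold and 2.52-fold (adjusted p = 2.12e-05 and 8.05e-06). The lower genes, named after their values were seen, were Smpd3, Galnt3, Phospho1, Anxa6 and Anxa5. Without knockout replicate 3 the number lower was 3.

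Among relatives and partners of the RUNX and SOX factors, 6 of 16 tested genes were higher and 4 lower (62.5% called, against 60.9% of all tested genes). The median log2 fold change was 0.23. Cbfb, the partner subunit that all RUNX proteins share, had a log2 fold change of -0.07 (SE 0.09, adjusted p = 0.543) at 130 ± 12.1 CPM in knockout and 137 ± 1.83 CPM in wild-type cells (SD, n = 3 each). The third family member, Runx3, had one of 0.30 (SE 0.19, adjusted p = 0.181). Hdac4, a deacetylase that represses RUNX2, was 2.97-fold higher (adjusted p = 4.24e-07) and the corepressor gene Tle1 1.75-fold higher (adjusted p = 5.95e-05). Its relatives Tle2 and Tle3 were lower (log2 fold change -1.01 and -0.38, adjusted p = 0.00236 and 0.0143 in edgeR). Tle4 was not called (log2 fold change 0.22, adjusted p = 0.156 in edgeR). Klf4, a zinc-finger factor gene, was 4.29-fold higher and Yap1, the Hippo pathway effector gene, 2.04-fold lower. Cbfb, Runx3, Tle2, Tle3 and Tle4 were named after their values were seen.

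Among relatives of the matrix and enzyme members, 3 of 7 tested genes were higher, 1 lower and 3 not called (57.1% called, against 60.9% of all tested genes). Vcan (versican), the aggrecan relative, rose to 145 ± 18.0 CPM in knockout cells, against 29.8 ± 5.26 CPM in wild-type cells (SD, n = 3 each), a 4.85-fold change. The hyaluronan link protein genes Hapln4 and Hapln3 moved apart, 4.85-fold higher and 5.37-fold lower (adjusted p = 6.36e-06 and 0.000661). Ece2, of the same metalloprotease family as Phex, was 1.73-fold higher (adjusted p = 0.000547). Matn2, a relative of Matn3 named after its value was seen, had a log2 fold change of 0.27 (SE 0.17, adjusted p = 0.202) at 96.1 ± 5.69 CPM in knockout and 79.5 ± 20.6 CPM in wild-type cells (SD, n = 3 each). The number lower was 2 without wild-type replicate 3, without both libraries numbered 3 and with scaling by library totals only.

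**Figure D4:**
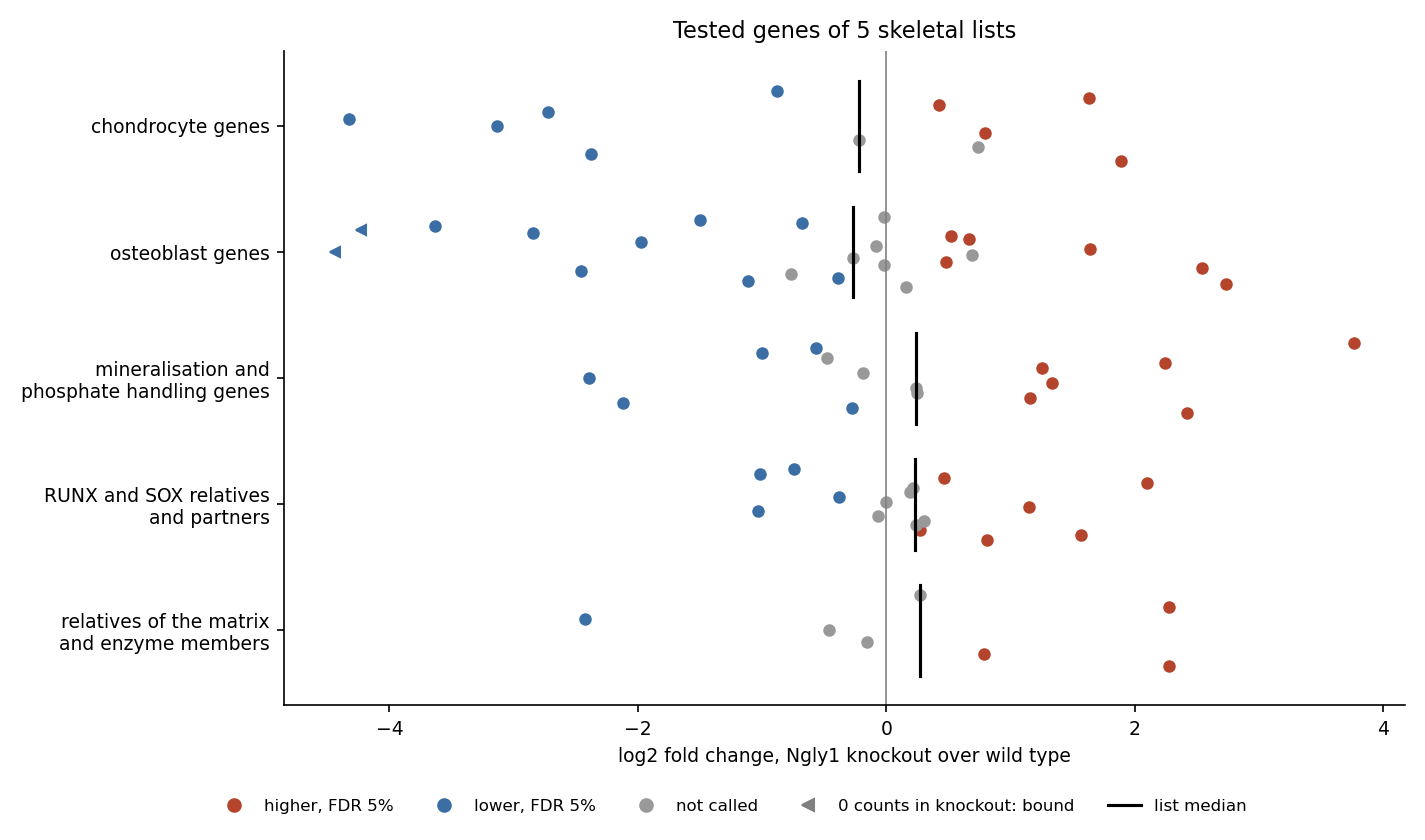
Log2 fold change, knockout over wild type, of every tested gene on the 5 skeletal lists (red higher, blue lower at a false discovery rate of 5%, grey not called; black lines are list medians). Triangles mark Zfp521 and Dlx3, which had 0 counts in knockout and are drawn at bounds that set the knockout sum to 3 counts. Each list holds genes on both sides of 0, and list medians lie between -0.26 and 0.27.

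Likeness of pattern was measured among the 72 tested genes of the 5 lists by Pearson's correlation of log2 CPM over the 6 libraries, which fall into the 2 genotype groups and share their depth, so it is a description only. The genes most like Sox9 were Fam20c (r = 0.97), the kinase gene of secreted mineralisation proteins, the cartilage collagen gene Col9a3 (r = 0.96) and Stc2 (r = 0.95). Fam20c averaged 26.0 ± 1.93 CPM in knockout and 11.7 ± 1.10 CPM in wild-type cells and Col9a3 1.69 ± 0.198 CPM in knockout and 0.45 ± 0.146 CPM in wild-type cells (SD, n = 3 each). For Runx2 the values were far lower, with the collagen gene Col11a2 at r = 0.55 (log2 fold change -0.22, adjusted p = 0.554) and the endopeptidase gene Ece1 at r = 0.52 (log2 fold change -0.15, adjusted p = 0.168), neither of them called.

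Markers of other cell types that the cultures could hold were mostly low, and some differed between the groups. Macrophage and leukocyte markers, relevant because RUNX1 is a blood factor, had rows for 5 of 7 symbols. They summed to 2.48 to 2.71 CPM in knockout and 2.01 to 3.64 CPM in wild-type libraries. Most of each sum was Cd68, at 2.42 to 2.56 CPM in knockout and 1.79 to 3.27 CPM in wild-type libraries. Ptprc, which encodes the leukocyte antigen CD45, had 0 counts in every knockout library and 3, 0 and 0 in wild-type libraries. Osteoclast markers summed to 0.457 to 1.09 CPM in knockout and 0.565 to 1.38 CPM in wild-type libraries. Of the 3 tendon markers 2 had rows, summing to 19.4 to 26.5 CPM in knockout and 53.7 to 68.2 CPM in wild-type libraries. Scx, the tendon regulator, fell 3.59-fold (adjusted p = 8.08e-06), while Mkx was not called (log2 fold change -0.32, adjusted p = 0.127). Smooth muscle markers were abundant, at 219 to 291 CPM in knockout and 102 to 163 CPM in wild-type libraries. The actin gene Acta2 and Tagln were higher (1.95-fold and 1.90-fold) and Cnn1 was lower, with 1 to 2 counts in knockout and 77 to 120 counts in wild-type libraries. The fibroblast list summed to 10486 to 11718 CPM in knockout and 7288 to 8159 CPM in wild-type libraries. Of its 9 tested genes, 2 were higher and 5 lower, against 30.7% and 30.2% of all tested genes. The fibronectin gene Fn1 alone made up 6839 to 7761 CPM in knockout and 1845 to 2335 CPM in wild-type libraries. Leaving Fn1 out was a choice made after seeing the data. The sum was then lower in every knockout library (3635 to 4161 CPM) than in any wild-type library (5192 to 5824 CPM). The genes called lower were Vim, Col1a2, Pdgfra, Pdgfrb and Thy1. Dcn, on the same list, was 4.60-fold higher (15.7 CPM in knockout, 3.36 CPM in wild-type cells, adjusted p = 0.000106 in edgeR). Col1a1 and Col3a1 were not called. Endothelial markers summed to 2.73 to 2.86 CPM in knockout and 1.49 to 2.20 CPM in wild-type libraries, with 1 of 2 tested called (Kdr, higher). Neural crest markers summed to 2.34 to 3.44 CPM in knockout and 1.65 to 2.16 CPM in wild-type libraries, with none called of 1 tested. Epithelial markers summed to 0.701 to 1.5 CPM in knockout and 1.83 to 2.52 CPM in wild-type libraries, with Cdh1 and Krt8 called lower and Krt18 not called. Adipocyte markers summed to 0.366 to 0.737 CPM in knockout and 1.57 to 3.22 CPM in wild-type libraries, where Fabp4 was the only one tested (lower) and Adipoq and Plin1 had at most 3 counts. Skeletal muscle markers lay at 0.442 to 0.705 CPM in knockout and 0.385 to 1.24 CPM in wild-type libraries. The part of these cell types in the members' differences was not tested.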

How the data were processed

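Per the labels' protocols, Trizol extracts of 6 MEF samples went into stranded total RNA sequencing libraries. The authors deposited raw counts, whole numbers per NCBI Gene ID, per the file headers, and the submitters' processing notes name STAR 2.5.1b and mm10. No counter, annotation or strand setting is given in the sources used here. In R 4.3.3, edgeR 4.0.16 kept genes by filterByExpr, scaled by TMM and tested genotype with a robust quasi-likelihood fit, adjusting over all 15039 tested genes. CPM uses TMM-scaled sizes, and RPKM divides it by the merged exon length of GENCODE M21. Intervals are 95%, and counting intervals and floors of 3 counts cover counting error only. On simulated data (knockout against wild type, 15039 genes) edgeR recovered 90% of 2-fold and 100% of 4-fold changes, and 13 of 168 calls were false. The simulation changed 200 genes, all more abundant than Matn3 and Phex, so recovery at their level was not simulated. No recovery is given for changes as small as that of Runx1. The share of genes changed was far smaller than the 60.9% called in the data. The members and lists were chosen with earlier results of these data known. Named genes are the 8 members, the 4 with the smallest p of each list, and the 3 most like Sox9 and Runx2. A gene that this rule names is not reported here. Alternatives were other scalings, filters and tests (DESeq2 1.42.0, limma 3.58.1), a replicate block, omission of structural RNA genes, and omission of libraries.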

Additional observations from a re-analysis of the deposited data

How the results depend on the processing

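Of 476 recomputed log2 fold changes, 456 kept their sign and side of the threshold, and 200 of 210 recomputed counts of called genes were within 1.5 times the reported one. Recomputing the named list genes was added after seeing the data. Of the 25 called ones, 24 kept call and sign in every alternative that tested them, and 4 (Col11a1, Hapln3, Zfp521 and Dlx3) were too low to be tested with at least 1 CPM in 3 libraries. With scaling by library totals only, which put the median over tested genes at -0.16 on the log2 scale, against -0.04, Runx1 had 0.33 and was not called, so members called higher numbered 1, and relatives of the matrix and enzyme members called lower numbered 2. That number was 0 with at least 1 CPM in 3 libraries, since fewer genes are tested, and 2 without both libraries numbered 3. Runx2, never called, had log2 fold changes of 0.0102 with no filter, 0.000715 in DESeq2 and 0.0803 without both libraries numbered 3, and Col11a2 had 0.16 in the last case. Leaving out 1 library at a time gave ranges of 1 to 2 for members called higher, 3 to 7 for mineralisation genes called lower, 1 to 2 for relatives called lower, 0.34 to 0.61 for Runx1, -0.14 to 0.13 for Runx2 and -0.41 to 0.00915 for Col11a2. Without knockout replicate 1, which held the only knockout counts of Sp7 and Acan, their ratios became bounds (log2 -1.45 and -0.75 against the floor). The cause was not tested in the other cases. Whether equal replicate numbers pair the libraries is not settled. Deviations from group means correlated at 0.096, 0.014 and 0.21 for replicates 1, 2 and 3, and at -0.18 to 0.15 between unlike numbers. With the replicate block 4690 genes were higher and 4563 lower (4621 and 4539 without it), with Sox9 at 1.31. The block lowered the SE from 0.20 to 0.13 for Sox9 and from 0.16 to 0.11 for Runx1 (adjusted p = 0.00593 in edgeR). For Matn3 the SE rose from 0.41 to 0.45. Depth limits Sp7, Acan and Alpl, for which 1 count is near 0.03 CPM.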

Other observations

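Among listed skeletal genes too rare to test, several were detected mainly in 1 group, and those named here were chosen after their values were seen. The share of such genes among all untested genes is not given here, so these counts are a description only. Others were found in both groups, such as Col10a1, with 5, 6 and 3 counts in knockout and 7, 4 and 1 counts in wild-type libraries. Tnfrsf11b, encoding the osteoclast inhibitor osteoprotegerin, had 11, 3 and 3 counts in knockout libraries and 0 in each wild-type library, at least 5.93-fold higher with the wild-type sum set to a floor of 3 counts. Its ligand gene Tnfsf11 (RANKL), which was tested, had 7, 1 and 3 counts in knockout and 40, 23 and 22 counts in wild-type libraries (log2 fold change -2.84, SE 0.57, adjusted p = 0.0016 in edgeR). Bmp2, an inducer of bone, had 5, 6 and 2 counts in knockout and 0, 1 and 0 counts in wild-type libraries. The ratio of its sums, wild type over knockout, was 0.0735 with a counting interval of 0.00173 to 0.489. Fgf23, the hormone gene that PHEX restrains, had 2, 3 and 4 counts in knockout and 0 in each wild-type library, 3.14-fold higher against the same floor. Sox6, a partner of SOX9 in cartilage, had 3, 0 and 2 counts in knockout and 11, 18 and 5 counts in wild-type libraries.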
